A study of Mus musculus with 1505 samples.

Results

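Inward-rectifier and leak potassium channels set the resting potential and the input resistance of a neuron. The 10 genes described here are all 10 of a fixed list, chosen by name from 42381 genes in the table of exonic counts of a Patch-seq study of mouse primary motor cortex. They are Kcnj3, Kcnj6 and Kcnj9, which encode the G-protein-gated channels GIRK1, GIRK2 and GIRK3, Kcnj4, which encodes a strong inward rectifier, Kcnj11, which encodes the pore of the ATP-sensitive channel, and the 2-pore genes Kcnk1, Kcnk2, Kcnk10, Kcnk3 and Kcnk9, which encode TWIK1, TREK1, TREK2, TASK1 and TASK3. Patch-seq records a neuron electrically and then takes its RNA through the same pipette. Of 1505 cells, 1405 carried a transcriptomic type (t-type) in their labels, 177 of them recorded at 34 °C and 1228 at 25 °C. All came from adult male and female mice, either wild-type C57Bl/6 or carrying the Ai9 reporter with Viaat-, Sst-, Vip-, Pvalb-, Npy-, Vipr2-, Slc17a8- or Gnb4-Cre or Slc17a8-iCre. The labels do not tie a cell to a line, and the numbers of cells per type depend on which lines were recorded.

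The cells at 25 °C fell into 10 families. They were the interneuron families Pvalb (286 cells), Sst (272), Vip (152), Lamp5 (92) and Sncg (13), and the excitatory families IT (253, intratelencephalic), ET (48, extratelencephalic, labelled PT), CT (83, corticothalamic), L6b (24) and NP (5, near-projecting). At 34 °C there were 110 Sst, 43 IT, 12 ET, 10 Pvalb and 2 NP cells, recorded on 8 days with kynurenic acid and picrotoxin in the bath, in Sst-Cre/Ai9 or Pvalb-Cre/Ai9 mice. The t-types were assigned by the authors from the same RNA. The labels give the recording day of a cell but name no animal, so each family or t-type was treated as 1 sample and no test was made. Pairs of families were also compared within the days that held cells of both. Values are CPM, counts scaled to a fixed library total, of the counts summed over the cells of a group, and the 95% intervals are exact Poisson intervals. These cover counting error only, and PCR copies in Smart-seq2 libraries are not independent molecules, so they are far narrower than the spread between cells. That spread is given as quartiles over single cells. Differences are log2 ratios after adding 1 CPM to both sides, and a gene is called past 2-fold where this value is at least 1 in size.

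Exonic counts per cell at 25 °C ranged from 2588 to 18172944, with a median of 1267852. The genes Pvalb, Sst, Vip and Lamp5 were each highest in the family of that name, with 373, 2189, 10042 and 967 CPM. Lamp5 and Vip were not confined to it, with 544 CPM of Lamp5 in ET and 284 in IT, and 1997 CPM of Vip in Sncg. Some markers of excitatory families were also shared with interneurons. The IT marker Cux2 had 89.5 CPM in IT and 103 in Pvalb, and the L6b marker Cplx3 had 422 CPM in L6b and 332 in Lamp5. RNA of other cells was present in all 8 families of at least 20 cells. All 8 microglial markers had reads in each, and their summed level ranged from 307 CPM in L6b to 964 CPM in Vip. The 8 astrocyte markers summed to between 157 CPM in Pvalb and 991 CPM in L6b, and the 7 oligodendrocyte markers to between 353 CPM in Lamp5 and 2012 CPM in L6b. The 5 markers of oligodendrocyte precursors stayed at or below 34.8 CPM and the 7 of vessels at or below 17.5 CPM. Recording year moves with family, since 98.8% of CT and 96.1% of Vip cells but 10.4% of ET cells were recorded in the last of the recording years at 25 °C. Cells of that last year and cells of the earlier years are also given apart.

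An inward-rectifier subunit has 2 membrane segments around 1 pore loop, and 4 subunits form a channel. A 2-pore subunit carries a pair of pore loops and works as a dimer, which leaks potassium at rest. In each loop, 5 residues form the potassium selectivity signature. GIRK channels open when Gi/o-coupled receptors, such as the GABA-B receptor, release G-protein beta-gamma subunits, and GIRK1 and GIRK3 depend on other subunits to reach the membrane. TREK channels respond to stretch, lipids and heat, and TASK channels to extracellular acid and to Gq-coupled receptors.

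Because the genes are paralogs, their pore sequences are printed to show how far they can be told apart by reads of 75 bases. Sequences are from GENCODE M21 transcripts on GRCm38, each 36 bases on the coding strand, with the codons of the signature in capitals. Of the inward rectifiers, 4 are shown.
Kcnj3 (chr2:55437612-55437647, plus strand): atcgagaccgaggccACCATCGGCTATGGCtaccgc
Kcnj6 (chr16:94832771-94832806, minus strand): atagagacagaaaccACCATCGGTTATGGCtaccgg
Kcnj9 (chr1:172326178-172326213, minus strand): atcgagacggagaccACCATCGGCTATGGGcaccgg
Kcnj11 (chr7:46099490-46099525, minus strand): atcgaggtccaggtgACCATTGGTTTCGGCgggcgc
In Kcnj11 the tyrosine codon of the signature is a phenylalanine codon, TTC. Kcnj3 shared 31 of 36 bases with Kcnj9 and 30 with Kcnj6, and Kcnj6 shared 30 with Kcnj9.

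For the 2-pore genes the second loop is printed, which lies in 1 exon, as the first loop of each is split between exons.
Kcnk1 (chr8:126025314-126025349, plus strand): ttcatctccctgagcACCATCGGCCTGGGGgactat
Kcnk2 (chr1:189256575-189256610, minus strand): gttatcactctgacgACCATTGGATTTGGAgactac
Kcnk10 (chr12:98440599-98440634, minus strand): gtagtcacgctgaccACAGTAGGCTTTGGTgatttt
Kcnk3 (chr5:30622187-30622222, plus strand): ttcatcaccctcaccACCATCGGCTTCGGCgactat
Kcnk9 (chr15:72512713-72512748, minus strand): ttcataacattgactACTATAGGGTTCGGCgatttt
Here the tyrosine codon is a phenylalanine codon in 4 genes and the leucine codon CTG in Kcnk1. In this loop Kcnk3 and Kcnk9 shared 26 of 36 bases, and Kcnk2 and Kcnk10 shared 24. Over whole transcripts, the longest identical run between any pair of inward rectifiers or any pair of 2-pore genes was 31 bases in 20 pairs, which is shorter than a read. Reads of antisense genes are another matter, since the libraries do not mark strand. Kcnk3 shares 229 exonic bases with Gm9899 on the other strand, which had 20492 reads at 25 °C, and Kcnk2 shares 604 bases with A430027H14Rik, which had 7907. Kcnj3, Kcnj6, Kcnj9 and Kcnk1 also overlap a gene on the other strand, by 1621, 380, 172 and 179 bases. Reads from these stretches cannot be told apart.

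Kcnk1, Kcnj9 and Kcnj3 were broadly present, whereas Kcnk10, Kcnk9, Kcnj4, Kcnk2 and Kcnk3 differed most between families. Among the 8 families of at least 20 cells, the highest family level over the lowest was 1.85 for Kcnj9, 3.13 for Kcnj3 and 3.77 for Kcnk1. For Kcnk2, Kcnk3 and Kcnj11 it was 7.71, 7.69 and 7.11, for Kcnj4 15.3 and for Kcnk9 24.7. For Kcnk10 the lowest family, Lamp5, held 9 reads in 92 cells. Per kilobase of exon, levels ran from 21.2 to 79.9 CPM per kb for Kcnk1 and from 18.2 to 33.7 for Kcnj9, the top of the list. The highest family reached 9.24 CPM per kb for Kcnk3, 6.87 for Kcnk9 and 5.10 for Kcnk10.

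Single cells spread widely in all 10 genes. In each of the 8 families at least 1 cell had no read of each gene, so that the lowest value of a cell was 0 CPM throughout. The quartile ranges over cells overlapped in all 28 pairs of families for 9 genes and in 26 of 28 pairs for Kcnk9. For Kcnj4, Kcnj6, Kcnj11, Kcnk3 and Kcnk10 the lower quartile was 0 CPM in all 8 families, so their overlap was fixed in advance. This count therefore cannot show whether families differ. The order of the families below is an order of sums, and neighbours in it were not shown to differ beyond the spread between cells. For Kcnj4 and Kcnj11 the median cell was at 0 CPM in all 8 families.

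**Figure D1:**
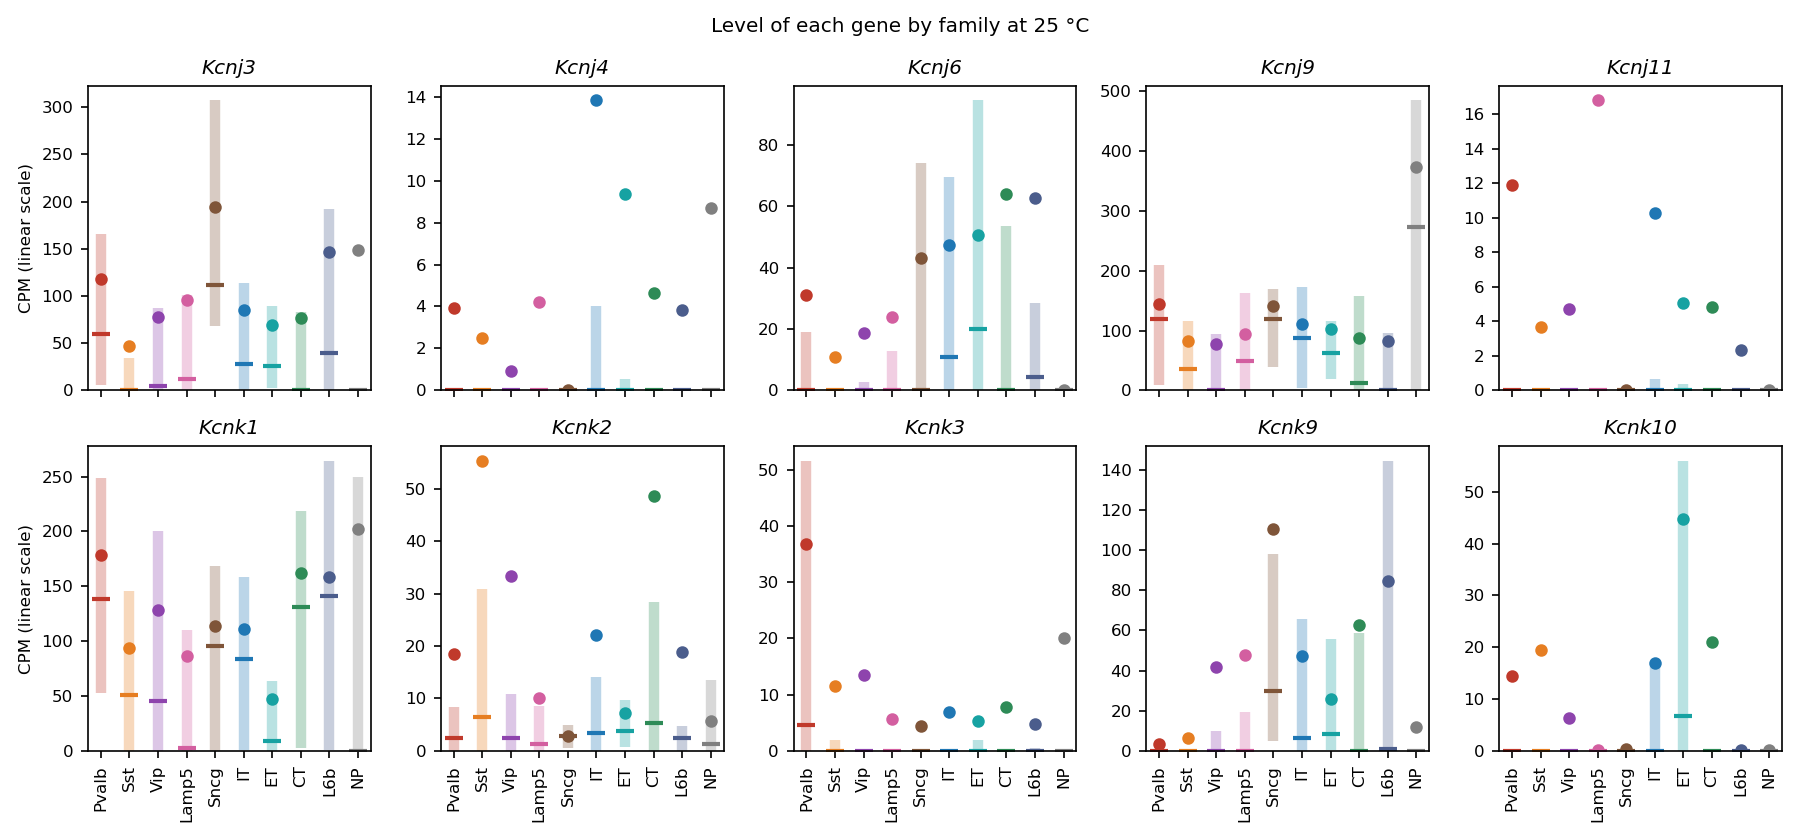
Level of each gene in CPM (y axis, linear, a scale of its own in each panel) in the 10 families at 25 °C (x axis). Points are the CPM of summed counts, horizontal ticks the median cell and bars the quartile range over cells, so that points far above their bar rest on few cells. Kcnk3 stands highest in Pvalb (36.7 CPM) and Kcnk10 in ET (44.8 CPM).

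The GIRK genes were led by Kcnj9 and Kcnj3, with Kcnj6 lower in most groups. Kcnj3 had 118 CPM in Pvalb (117 to 119), 46.8 in Sst, 78.1 in Vip, 95.7 in Lamp5 and 194 in Sncg, and 84.8 in IT, 69.3 in ET, 76.4 in CT, 147 in L6b and 149 in NP. Sst was lowest and L6b highest of the 8 larger families, 1.24 times Pvalb, but in L6b 21.8% of the reads came from 1 cell. The NP value rested on 1 of 5 cells, with 699.5, 2.88, 0.663, 0 and 0 CPM. Over single cells, Kcnj3 had a median of 59.4 and a highest value of 1028 CPM in Pvalb, against a median of 0 and a highest value of 429 CPM in Sst.

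Kcnj9 was the most even gene of the list. It had 144 CPM in Pvalb (143 to 145), 83.1 in Sst, 78 in Vip, 93.6 in Lamp5 and 141 in Sncg, and 111 in IT, 102 in ET, 86.8 in CT and 83 in L6b. Pvalb was the highest of the 8 larger families, 1.30 times IT, and stayed first in all 6 alternatives, with ratios to the next family of at least 1.17. One of these alternatives, cells of the earlier years alone, ranked 6 families, since CT and L6b then had 1 cell each. In NP the cells had 763, 484, 273, 1.33 and 0 CPM. The median cell had 119.8 CPM in Pvalb, 86.7 in IT, 62.6 in ET and 35.4 in Sst, but 1.14 in Vip and 0 in L6b.

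Kcnj6 encodes GIRK2, a subunit that can form channels by itself and carries other GIRK subunits to the membrane. It was highest in the excitatory families, with 64.1 CPM in CT, 62.8 in L6b, 50.5 in ET and 47.5 in IT, and lower in interneurons, with 31 in Pvalb, 24.1 in Lamp5, 18.7 in Vip and 11 in Sst. Sncg had 43 CPM, and in NP no read was found in 5 cells. The floor of 3 counts there, 0.330 CPM, covers counting error only and not the spread between cells. CT stayed highest in 2 of 6 alternatives only, and L6b had 38.8 CPM without 1 of its cells. The median cell was above 0 in IT (10.9 CPM), ET (20.02) and L6b (4.24), and the highest cell of all 10 families was an IT cell with 863 CPM. After each cell was thinned to 200000 counts, 68.2% of ET cells (52.4% to 81.4%, exact binomial interval), 58.3% of IT, 50% of L6b and 42.7% of CT cells held a Kcnj6 read, against 42.1% in Pvalb and 15.6% in Sst. The shares before thinning were 72.9%, 63.6%, 54.2%, 45.8%, 48.3% and 20.6% in the same order. By share, CT was thus close to Pvalb, while by CPM it was above.

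Kcnj3 and Kcnj6 were found together in 52.3% of thinned ET cells, 42.1% of IT, 38.8% of Pvalb and 30.5% of CT cells. In Lamp5 the share was 25.6%, in Vip 14.8% and in Sst 8.02% (4.896% to 12.2%). Kcnj3 and Kcnj9 were found together in 64.5% of Pvalb and 28.7% of Sst cells. Among 53 t-types of at least 5 cells, Kcnj3 exceeded Kcnj6 in CPM in 50 and Kcnj9 exceeded Kcnj6 in 49. These are differences of reads per gene, and Kcnj6 has the longest exons of the 3 genes, 7.63 kb against 5.215 kb for Kcnj3 and 4.29 kb for Kcnj9.

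Within families, 1 Sst t-type stood apart for Kcnj3 and Kcnj9. In Sst Chodl (12 cells), the type of long-range projecting interneurons, Kcnj3 was at 0.531 CPM with 6 reads in 2 cells, at 19 and 4.17 CPM. Kcnj9 was at 5.57 CPM with 63 reads in 3 cells, at 49.99, 19.01 and 6.61 CPM. Kcnj6 had no read in any of the 12, but this was not particular to Sst Chodl. Of 15 Sst t-types, 3 had no Kcnj6 read, and the median Sst t-type had 3.88 CPM. Sst Chodl was the lowest of 53 t-types for Kcnj3 and Kcnj9, and the medians over t-types were 84.2 and 99.2 CPM. For Kcnj3 the highest were Pvalb Egfem1 (264 CPM, reads in 11 of 11 cells) and Pvalb Gabrg1 (233 CPM), with 147 and 121 CPM when the cell with the most reads was left out. For Kcnj9 they were Sst C1ql3_1 (234 CPM, reads in 7 of 8 cells) and Sst C1ql3_2 (198 CPM). Kcnj6 reached 131 CPM in L6b Ror1 and 102 CPM in Sst Th_1, but 3 of 5 and 2 of 7 cells had reads, and without the cell with the most reads the levels were 46.3 and 0.158 CPM. In t-types where more cells had reads, Kcnj6 had 93.6 CPM in L6 IT_2 (18 of 25 cells) and 82.2 CPM in L6 CT Cpa6 (32 of 65), against 11 CPM in L6 CT Pou3f2, of which 1 cell held 64.1%.

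Kcnj4, a strong rectifier that holds the membrane near the potassium equilibrium potential, was low throughout. It had 13.8 CPM in IT (13.5 to 14.2), 9.35 in ET, 8.68 in NP, 4.65 in CT and 3.81 in L6b, and 4.19 in Lamp5, 3.92 in Pvalb, 2.5 in Sst and 0.904 in Vip. Sncg had no read in 13 cells, where the floor of 3 counts is 0.145 CPM, again for counting error only. IT was the highest family in all 6 alternatives, 1 of them without CT and L6b, at 1.48 times ET in the sums. Without 1 cell each, ET had 5.70 CPM, L6b 0.659 and Vip 0.470 CPM. After thinning 24.2% of IT cells held a read (18.9% to 30.1%), against 15.9% in ET, 12.8% in Pvalb, 12.5% in L6b, 12.2% in CT, 11.1% in Lamp5, 6.33% in Sst and 4.03% in Vip. Within IT, Kcnj4 was at 19.8 CPM in L2/3 IT_3 and at 0.102 CPM in L5 IT_3, where 1 of 5 cells had reads. In Sst the median t-type had 0.0890 CPM and 6 of 15 t-types had no read, while Sst Th_1 and Sst Etv1 had 27.1 and 19.9 CPM. These were 2.06 and 6.52 CPM without the cell with the most reads.

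Kcnj11 joins with the sulphonylurea receptor Abcc8 to form the ATP-sensitive channel of neurons. It had 16.8 CPM in Lamp5, 11.9 in Pvalb, 10.3 in IT, 5.04 in ET, 4.85 in CT, 4.74 in Vip, 3.69 in Sst and 2.36 in L6b, and no read in Sncg or NP. Lamp5 remained the highest family in 3 of 6 alternatives, and without 1 cell each ET had 3.17 CPM, CT 1.42 and L6b 0.735. Reads came from few cells, since after thinning 22.1% of IT, 20.5% of ET and 16.5% of Pvalb cells held one, and 11.1% of Lamp5 cells. Abcc8 was higher than Kcnj11 in each of the 8 larger families, with 118 CPM in ET, 74 in IT, 64.4 in Pvalb and 29.8 in Sst, and its exons are 8.09 kb long against 3.68 kb. Abcc9, which encodes the receptor of vascular channels, stayed at or below 0.356 CPM in these 8 families.

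**Figure D2:**
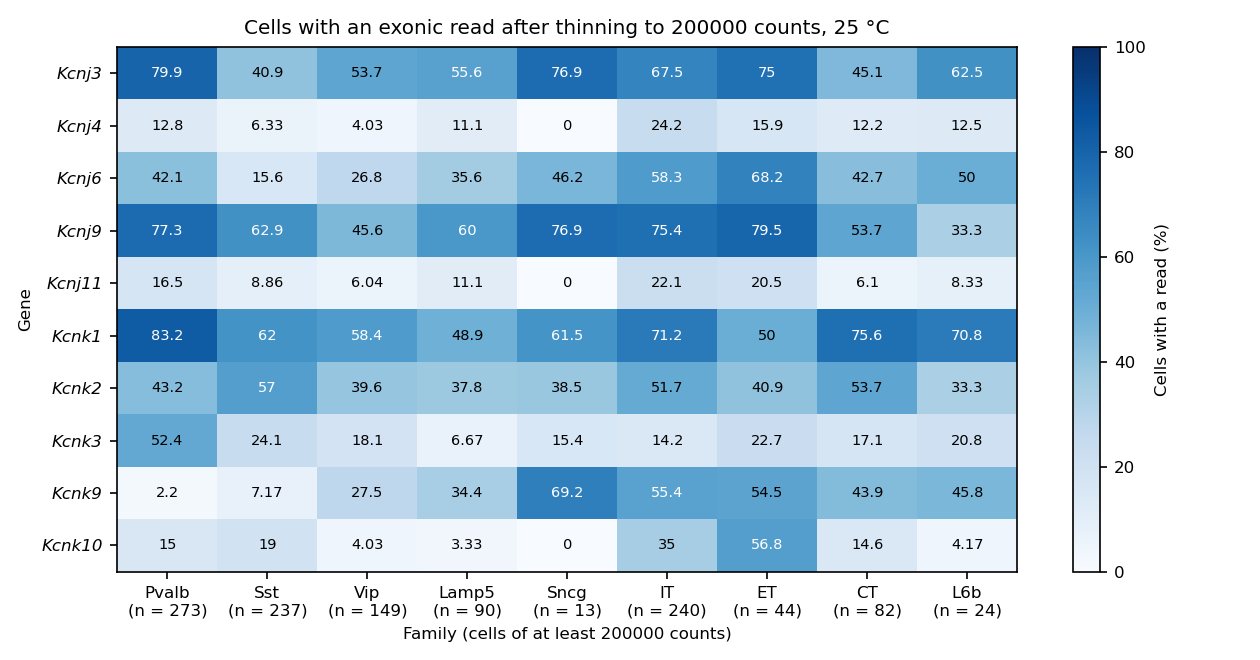
Percent of cells with an exonic read of each gene (rows) in 9 families (columns) after each cell was thinned to 200000 counts. Darker cells of the grid are higher. Kcnk9 was found in 2.2% of Pvalb and 55.4% of IT cells, Kcnk3 in 52.4% of Pvalb and 14.2% of IT cells.

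Kcnk1 encodes TWIK1, a weakly conducting channel that can also carry sodium when extracellular potassium is low. Of the 10 genes it was the 1 with at least 10 CPM in all 53 t-types. Its level was 179 CPM in Pvalb, 162 in CT, 159 in L6b, 128 in Vip, 111 in IT, 93.7 in Sst, 86.6 in Lamp5 and 47.4 in ET (46.1 to 48.6). Sncg had 114 CPM, and the NP cells had 549.8, 249, 0, 0 and 0 CPM. ET was the lowest of the 8 larger families, with a median cell of 9.37 CPM, a highest cell of 254 CPM and 45.4% of its reads in 1 cell, without which it had 28.2 CPM. In Pvalb the median cell had 138 and the highest 1139 CPM. Over t-types, Kcnk1 ranged from 13.2 CPM in L5 IT_2 (7 cells) to 314 CPM in Pvalb Gabrg1, where all 7 cells had reads.

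The TREK genes were distributed differently from each other. Kcnk2 had 55.3 CPM in Sst (54.6 to 56), 48.7 in CT, 33.3 in Vip, 22.1 in IT, 18.9 in L6b, 18.6 in Pvalb, 10.1 in Lamp5 and 7.17 in ET. Its paralog Kcnk10 had 44.8 CPM in ET (43.6 to 46), 21.1 in CT, 19.4 in Sst, 16.9 in IT, 14.5 in Pvalb, 6.36 in Vip, 0.203 in L6b and 0.0631 in Lamp5. Thus Kcnk10 exceeded Kcnk2 6.24 times in ET, and Kcnk2 exceeded Kcnk10 161-fold in Lamp5, 92.8-fold in L6b and 2.85-fold in Sst, before allowing for their exon lengths of 8.77 and 4.94 kb. In L6b 1 cell held 78.8% of the Kcnk2 reads and the level without it was 4.31 CPM, and in CT 1 cell held 59% of the Kcnk10 reads and the level without it was 8.92 CPM, below the Sst, IT and Pvalb values. Vip had 3.76 CPM of Kcnk10 without 1 cell. Sncg had 2.81 CPM of Kcnk2 and 0.388 CPM of Kcnk10, and NP had 5.72 and 0.110 CPM.

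Kcnk10 stayed highest in ET in all 6 alternatives, 1 of them without CT and L6b, with ratios to the next family between 1.48 and 5.68. The 5.68 came from cells of the last year alone, which left 5 ET cells at 120 CPM. The 43 ET cells of the earlier years had 28.7 CPM. Of the ET reads, 1 cell held 43%, and the level without it was 26.6 CPM. ET cells had a median of 6.76 and a highest value of 492 CPM, and quartiles of 0 and 56 CPM. After thinning 56.8% of ET cells held a read (41% to 71.7%), against 35% of IT, 19% of Sst, 15% of Pvalb, 14.6% of CT, 4.17% of L6b, 4.03% of Vip and 3.33% of Lamp5 cells. The before-thinning shares were 66.7%, 40.3%, 21.3%, 17.8%, 19.3%, 4.17%, 4.61% and 6.52%. The values in Lamp5 and L6b rest on 9 and 8 reads. The 7 oligodendrocyte markers summed to 1573 CPM in ET, 721 in IT and 2012 CPM in L6b. Their part in the Kcnk10 levels was not tested.

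Kcnk2 had a median cell above 0 CPM in all 8 larger families. The median was 6.50 CPM in Sst, 5.36 in CT, 3.74 in ET and 3.44 in IT, while the highest cells were at 1168, 400.3, 81.3 and 434 CPM. High values were thus held by a minority of cells. By t-type, Kcnk2 was highest in Vip Gpc3 (121 CPM, 17 of 26 cells), Pvalb Calb1_1 (98.7 CPM), Sst Calb2 (95.9 CPM, 48 of 61 cells) and Sst Pvalb Calb2 (90.8 CPM), and lowest in L6 IT_1 (2.23 CPM). In Pvalb Calb1_1 the 9 cells had 645, 535, 33.4, 16.1, 7.86, 3.21, 0.900, 0 and 0 CPM, so that a pair of cells carried the value. Sst Calb2 without its cell with the most reads kept 74.8 CPM.

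Kcnk10 was at or near 0 CPM in whole groups of t-types. All 5 Lamp5 t-types were under 0.1 CPM, 5 of 9 Vip t-types had no read, and 20 of 53 t-types were under 1 CPM. Vip Serpinf1_1 and Vip C1ql1 were exceptions with 66 CPM (3 of 10 cells) and 60.7 CPM (1 of 8 cells). In Sst it was at 79.5 CPM in Sst Etv1 and 42.7 CPM in Sst Calb2, and the 96.7 CPM of Sst C1ql3_2 came from 1 of 6 cells. The ET t-types L5 PT_4 and L5 PT_1 had 85.2 and 30.4 CPM, and L5 PT_4 had 7.402 CPM without 1 of its 9 cells. Kcnk2 exceeded Kcnk10 in 38 of 53 t-types, in 12 of 15 in Sst and in 0 of 2 in ET. Both were found in 22.7% of thinned ET cells, 19.6% of IT, 11.8% of Sst, 5.86% of Pvalb and 0 of 90 Lamp5 cells.

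The TASK genes were ordered differently over the 8 larger families, with Pvalb highest for Kcnk3 and lowest for Kcnk9, and L6b lowest for Kcnk3 and highest for Kcnk9. Kcnk3 had 36.7 CPM in Pvalb (36.2 to 37.3), 13.4 in Vip, 11.6 in Sst, 7.71 in CT, 6.83 in IT, 5.69 in Lamp5, 5.37 in ET and 4.78 in L6b. Kcnk9 had 3.42 CPM in Pvalb (3.26 to 3.59), 6.54 in Sst, 25.8 in ET, 41.8 in Vip, 47.3 in IT, 47.8 in Lamp5, 62.9 in CT and 84.6 in L6b. Kcnk3 exceeded Kcnk9 10.7-fold in Pvalb and 1.78-fold in Sst, and Kcnk9 exceeded Kcnk3 in the other 6, from 3.11-fold in Vip to 17.7-fold in L6b. The exons of Kcnk9 are 12.3 kb long in the annotation and those of Kcnk3 3.98 kb, so that per length the gaps in Pvalb and Sst are wider and the others narrower. Sncg had 111 CPM of Kcnk9, of which 59.1% came from 1 cell, and 4.36 CPM of Kcnk3.

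Pvalb was the highest family for Kcnk3 in all 6 alternatives, with ratios to the next of at least 2.62. The alternative with cells of the earlier years ranked 6 families, and the 1 CT cell it left out was at 80.5 CPM, above the 34.6 CPM of Pvalb. Its median cell had 4.63 CPM, its upper quartile 51.6 and its highest cell 719 CPM, whereas the median was 0 in the other 7 larger families. After thinning 52.4% of Pvalb cells held a Kcnk3 read (46.3% to 58.4%), against 24.1% in Sst, 22.7% in ET, 20.8% in L6b, 18.1% in Vip, 17.1% in CT, 14.2% in IT and 6.67% in Lamp5. L6b, lowest by CPM, was thus not lowest by share, and 1 cell held 50.5% of its reads. For Kcnk9 the thinned share was 2.2% in Pvalb (0.811% to 4.72%) and 7.17% in Sst, against 27.5% in Vip, 34.4% in Lamp5, 43.9% in CT, 45.8% in L6b, 54.5% in ET and 55.4% in IT. Without thinning these were 4.20%, 11.4%, 33.6%, 44.6%, 47%, 54.2%, 75% and 63.6%, so that L6b, highest by CPM, was below ET and IT by share. Median depth in Pvalb was 1427229 counts, in IT 1106090 and in ET 1232261, and the part of depth in the shares without thinning was not tested. Of the Pvalb reads of Kcnk9, 53.6% came from 1 cell, and without it the level was 1.60 CPM. A Kcnk3 and a Kcnk9 read occurred together in 1.47% of Pvalb, 8.75% of IT and at most 16.7% of cells in any family.

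Across t-types, Kcnk3 was the higher TASK gene in Pvalb and Kcnk9 in most Lamp5, Vip and IT types. In all 9 Pvalb t-types Kcnk3 exceeded Kcnk9, and Kcnk3 ranged from 25.5 CPM in Pvalb Vipr2_2, the chandelier cells, to 127 CPM in Pvalb Gabrg1. In Pvalb Gabrg1 the 7 cells had 226, 224, 194, 188, 63.7, 13.6 and 0 CPM of Kcnk3, so that 6 of 7 had reads. Kcnk9 was under 1 CPM in 6 of the 9 Pvalb t-types and under 1 CPM in 9 of 15 Sst t-types. The exceptions in Pvalb each rested on few cells, with reads in 1 of 7 cells in Pvalb Gabrg1 (67.1 CPM) and 1 cell at 137 CPM in Pvalb Calb1_1. In Sst, Kcnk9 had 53 CPM in Sst Th_1 (16.7 CPM without 1 of 7 cells), 34.5 in Sst C1ql3_2 from 1 of 6 cells, and no read in 14 cells of Sst Crhr2_1. Kcnk9 exceeded Kcnk3 in 5 of 5 Lamp5 t-types, 7 of 9 Vip t-types and 7 of 8 IT t-types. It varied within these families, from 9.97 CPM in Lamp5 Slc35d3 to 159.7 CPM in Lamp5 Egln3_1 and from 4.28 CPM in L5 IT_3 to 142 CPM in L6 IT_1, with 85 CPM in L2/3 IT_3. Sncg Npy2r was highest of all 53 with 257 CPM in 5 cells, all with reads, but 46.6 CPM without 1 of them.

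**Figure D3:**
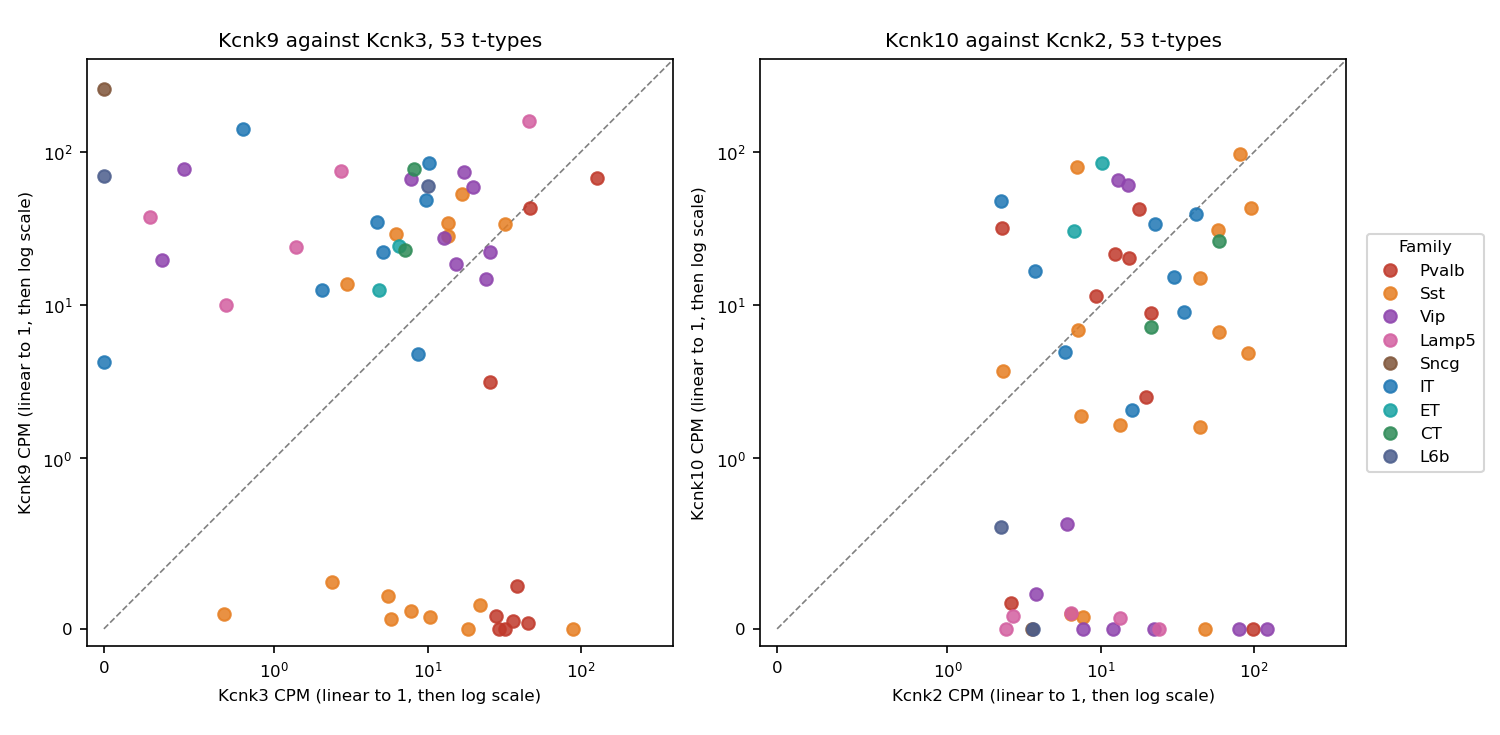
CPM of Kcnk9 (y axis) against Kcnk3 (x axis), left, and of Kcnk10 against Kcnk2, right, in 53 t-types at 25 °C. Points are t-types coloured by family, axes are linear up to 1 CPM and logarithmic above, and the dashed line marks equal values. All 9 Pvalb t-types lie below the line on the left, and both ET t-types lie above it on the right.

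**Figure D4:**
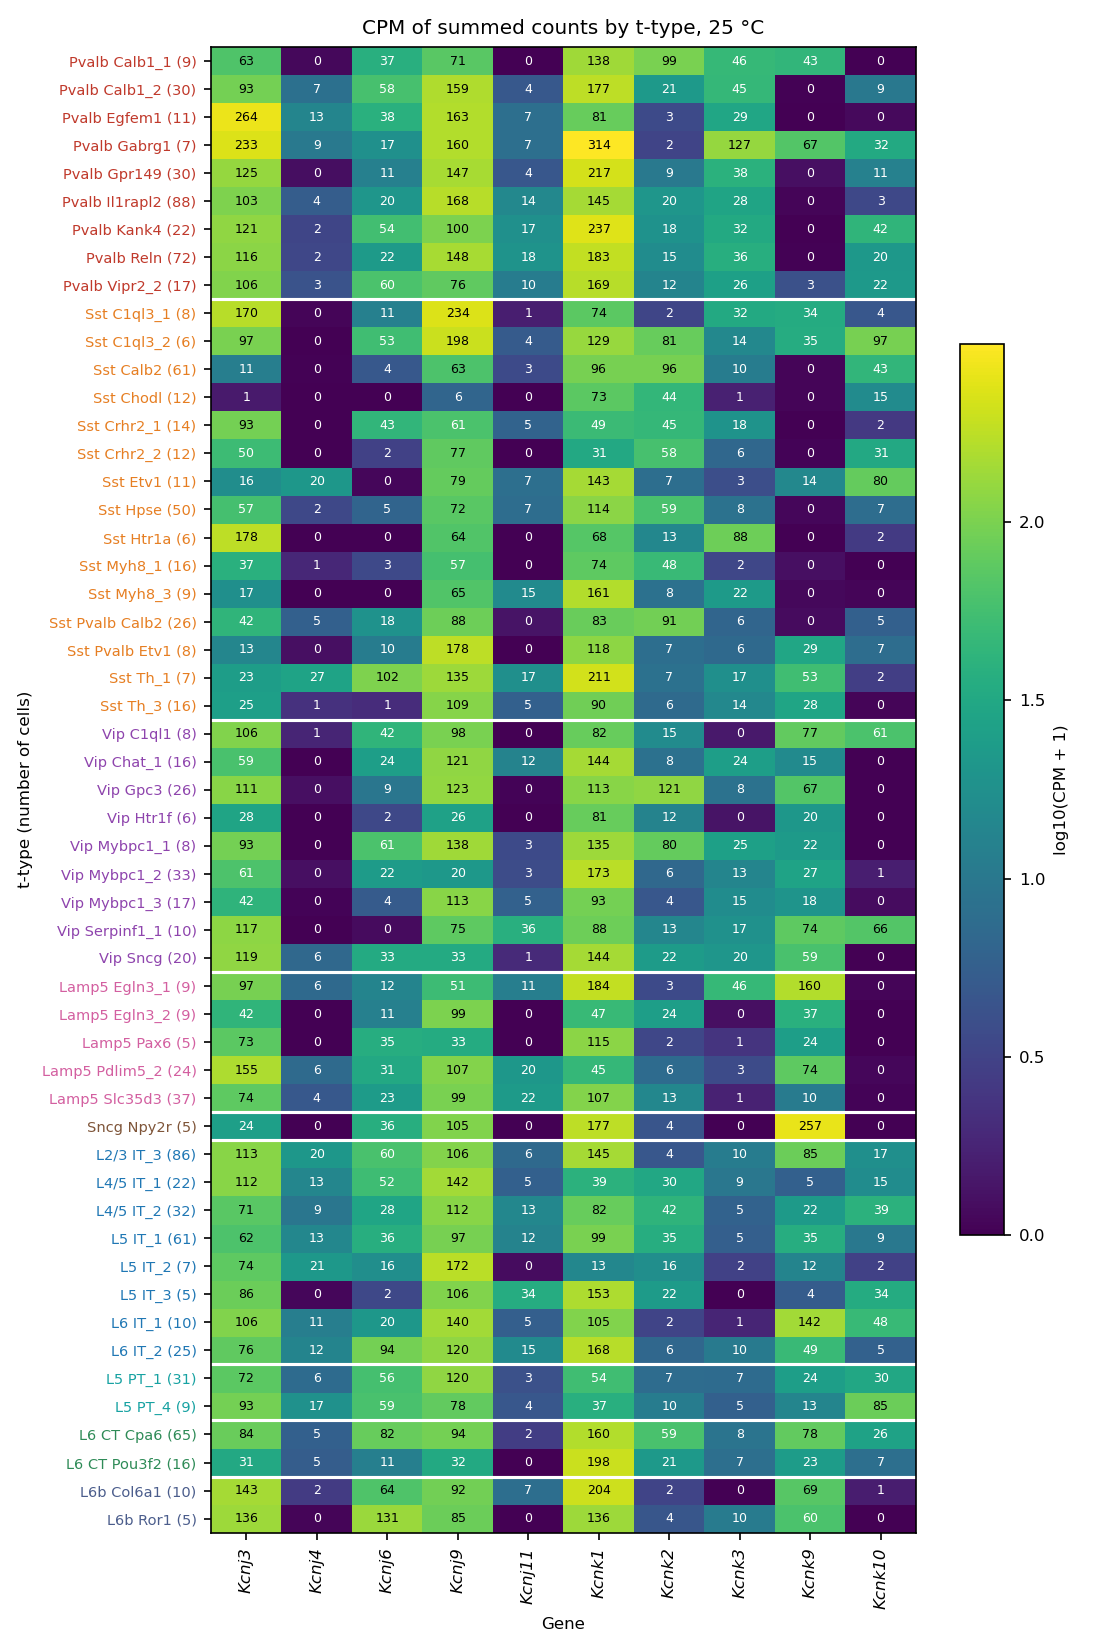
CPM of summed counts of the 10 genes (columns) in 53 t-types (rows, number of cells in brackets, labels coloured by family) at 25 °C. Colour is log10(CPM + 1) and the printed numbers are CPM rounded to whole numbers. The Sst Chodl row is the lowest for Kcnj3 and Kcnj9 and, like other Sst rows, at 0 for Kcnj6, and the 5 Lamp5 rows round to 0 for Kcnk10.

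The next comparisons place pairs of groups side by side, with the share of all genes past 2-fold as background. That background covers genes of at least 10 CPM on 1 side, and all 10 members were counted, including those below this level. With 1 sample a side, being past 2-fold is a size and not a test.

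Interneurons were set against excitatory neurons as the mean of 4 family levels (Pvalb, Sst, Vip and Lamp5, 802 cells) over the mean of 3 (IT, ET and CT, 384 cells). Of 10 members 4 were past 2-fold, 1 higher and 3 lower, and 8 members had at least 10 CPM on 1 side, 3 of them past 2-fold. Among all 11271 genes of that level 17.4% were past 2-fold, 8.32% higher and 9.05% lower. Kcnk3 averaged 16.9 CPM in interneurons and 6.64 CPM in excitatory neurons (log2 1.23). Kcnj6 averaged 21.2 CPM in interneurons and 54 CPM in excitatory neurons (log2 -1.31), Kcnk10 10.1 and 27.6 CPM (log2 -1.37), and Kcnj4 2.88 and 9.27 CPM (log2 -1.40). For Kcnk3 the direction turned with cells of the earlier years alone (log2 -1.40), where the single CT cell had 80.5 CPM and the 6 Vip cells were at 0.983 CPM. With cells of the last year alone 2 members were past 2-fold, beside 23.4% of all genes.

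Pvalb over Sst, like Lamp5 over Vip, put 5 of all 10 members past 2-fold, more than the other comparisons. Among members with at least 10 CPM on 1 side, 5 were past 2-fold in Pvalb over Sst. In Lamp5 over Vip, interneurons over excitatory neurons and ET over IT, 3 such members were. The 5 members in Pvalb over Sst were 4 higher and 1 lower, all among the 8 with at least 10 CPM on 1 side, against 13.1% of 10852 genes, 6.72% higher and 6.4% lower. Kcnk3 had 36.7 CPM in Pvalb and 11.6 in Sst (log2 1.58), Kcnj11 11.9 and 3.69 (log2 1.46), Kcnj6 31 and 11 (log2 1.41) and Kcnj3 118 and 46.8 (log2 1.32). Kcnk2 went the other way, with 18.6 CPM in Pvalb and 55.3 in Sst (log2 -1.53). Kcnk1 and Kcnj9 were higher in Pvalb by less than 2-fold (log2 0.92 and 0.79), so that the 3 GIRK genes were all above their Sst level. The 5 genes past 2-fold stayed so in the same direction with cells of the earlier years alone and with cells of the last year alone. At 34 °C the 10 Pvalb cells and the 110 Sst cells had 130.4 and 44.6 CPM of Kcnj3, 46.3 and 12.4 CPM of Kcnj6, 24.2 and 17.4 CPM of Kcnk3, 2.78 and 5.80 CPM of Kcnj11, and 50.5 and 52.3 CPM of Kcnk2. Kcnj3 and Kcnj6 were thus again higher in Pvalb, Kcnj11 was not, and Kcnk2 was close in both. Kcnk3 had 16.4 CPM in Pvalb and 16.5 in Sst at 34 °C when the cell with the most reads was left out of each. On the 37 days with cells of both families (81 Pvalb and 116 Sst cells), the same 5 genes were past 2-fold in the same direction. Kcnk3 was higher in Pvalb on 26 days and lower on 7, Kcnj3 higher on 27 and lower on 10, Kcnj6 higher on 20 and lower on 14, and Kcnk2 higher on 9 and lower on 27. Kcnj11 was higher in Pvalb on 8 days and lower on 8. Kcnk9 was then also past 2-fold (log2 1.05), although it was higher in Pvalb on 5 days and lower on 8. Kcnk9 had no read in the 10 Pvalb cells at 34 °C and 9.62 CPM in Sst. The floor of 3 counts in these Pvalb cells, 0.232 CPM, covers counting error only. At 25 °C 4.20% of Pvalb cells held a Kcnk9 read, so 10 cells without a read do not limit the level to this floor.

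Lamp5 over Vip compared 2 interneuron families. The study groups both with interneurons from the caudal ganglionic eminence, but describes the type Lamp5 Lhx6 as putatively from the medial one. Of 10 members 5 were past 2-fold, 2 higher and 3 lower, and 3 of the 8 with at least 10 CPM, against 19.4% of 10979 genes, 8.72% higher and 10.7% lower. Kcnj11 had 16.8 CPM in Lamp5 and 4.74 in Vip (log2 1.63), and Kcnj4 had 4.19 and 0.904 (log2 1.45). Kcnk10 had 0.0631 CPM in Lamp5 and 6.36 in Vip (log2 -2.79), Kcnk2 10.1 and 33.3 (log2 -1.62) and Kcnk3 5.69 and 13.4 (log2 -1.11). For Kcnk3 in Lamp5, 76.6% of the reads came from 1 cell, and without it the level was 1.36 CPM. For Kcnj11 the difference turned with cells of the earlier years alone (log2 -0.15, 8 Lamp5 and 6 Vip cells), and on the 17 days with cells of both families it was 0.29. The other 4 genes stayed past 2-fold on those days, with Kcnk2 lower in Lamp5 on 12 days and higher on 4, and Kcnk3 lower on 8 and higher on 0.

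Among excitatory families, ET over IT gave 3 of 10 members past 2-fold, 1 higher and 2 lower, all among the 9 with at least 10 CPM, against 20% of 11394 genes, 9.45% higher and 10.6% lower. Kcnk10 had 44.8 CPM in ET and 16.9 in IT (log2 1.36). Kcnk2 had 7.17 and 22.1 CPM (log2 -1.50) and Kcnk1 47.4 and 111 CPM (log2 -1.21). For Kcnk2 the median cell was close in both, at 3.74 CPM in ET and 3.44 in IT. The share of cells with a Kcnk2 read was 77.1% in ET and 70.8% in IT before thinning, and 40.9% and 51.7% after. The Kcnk10 value was 0.75 without the cell with the most reads in each family and 0.54 with cells of the earlier years alone, while Kcnk2 stayed between -1.76 and -1.20 in all alternatives with the whole IT family but the pseudocount of 10 CPM (-0.90). Against the 77 IT cells of layer 5 t-types alone, ET had 44.8 CPM of Kcnk10 and layer 5 IT 9.91 CPM (log2 2.07), and 7.17 and 31.7 CPM of Kcnk2 (log2 -2.0). Kcnj11 was then also past 2-fold, with 5.04 CPM in ET and 12.3 in layer 5 IT (log2 -1.14). On the 22 days with cells of both families (38 ET and 72 IT cells), Kcnk2 was lower in ET on 16 days and higher on 6 (log2 -1.55), and Kcnk10 was higher on 12 and lower on 10 (log2 1.86). Kcnk1 was then under 2-fold (log2 -0.85) and Kcnj11 past it (log2 -1.16). At 34 °C the 12 ET and 43 IT cells had 34.1 and 17.2 CPM of Kcnk10, 7.70 and 45.7 CPM of Kcnk2, and 74.4 and 121 CPM of Kcnk1, in the same order as at 25 °C. The thinned share of cells with a Kcnk10 read was 41.7% in ET and 41.9% in IT at 34 °C, and before thinning it was 41.7% in ET and 51.2% in IT, so that the share did not follow the CPM there. Intronic counts at 34 °C, a separate table, had 261 CPM of Kcnk10 in ET and 107 in IT, 10.2 and 85.9 CPM of Kcnk2, and 10.4 and 72.2 CPM of Kcnk1. Of the 7 oligodendrocyte markers with at least 10 CPM, 6 were past 2-fold higher in ET at 25 °C. Their part in these differences was not tested.

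CT over IT gave 2 of 10 members past 2-fold, 1 higher and 1 lower, both among the 9 with at least 10 CPM, against 20.8% of 11024 genes, 5.3% higher and 15.5% lower. The shares of all genes depended on the scaling, with 12.6% higher and 9.26% lower after median-of-ratios scaling, which shifted the median of all genes by 0.34 on the log2 scale. Kcnk2 had 48.7 CPM in CT and 22.1 in IT (log2 1.11, and 0.86 without the deepest cell of each family), and Kcnj4 had 4.65 and 13.8 CPM (log2 -1.39). On the 28 days with cells of both families (59 CT and 49 IT cells), Kcnk2 was under 2-fold (log2 0.50, higher in CT on 17 days and lower on 9) and Kcnj4 past it (log2 -1.19, lower on 10 and higher on 6). All 8 microglial markers were past 2-fold lower in CT, with a sum of 308 CPM against 933 in IT. Their part in these differences was not tested.

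**Figure D5:**
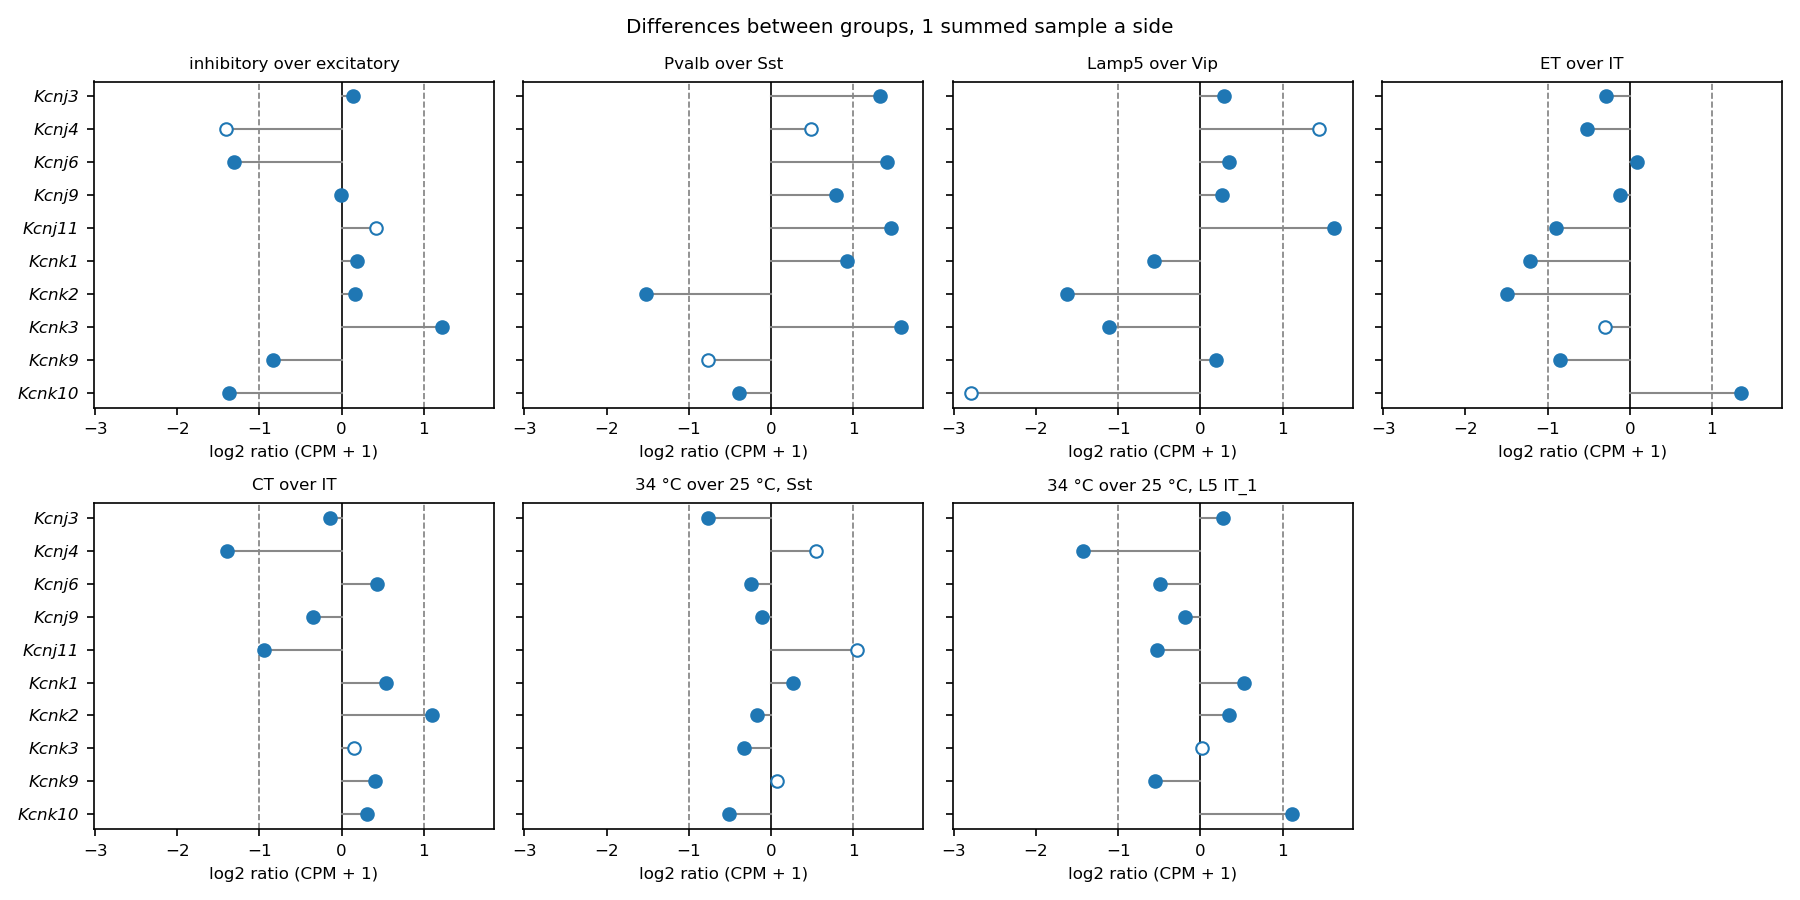
Log2 ratio of CPM + 1 (x axis) for the 10 genes (rows) in 7 comparisons, each named with the group on top of the ratio first. Filled points have at least 10 CPM on 1 side, open points do not, and dashed lines mark 2-fold. In Pvalb over Sst 4 genes lie beyond the right line and Kcnk2 beyond the left.

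Cells recorded at 34 °C were set against cells at 25 °C within t-types. Temperature, the synaptic blockers, the animals and the recording year cannot be told apart in this comparison. In Sst the means over 9 t-types with at least 5 cells at both temperatures (98 and 199 cells) put 1 of 10 members past 2-fold, in the higher direction, and 0 of the 7 with at least 10 CPM, against 14.8% of 10690 genes, 5.66% higher and 9.15% lower. Median-of-ratios scaling gave 2.92% higher and 15.4% lower and shifted the median of all genes by -0.20 on the log2 scale. The 1 gene was Kcnj11, with 5.58 CPM at 34 °C and 2.2 at 25 °C (log2 1.04). It was higher at 34 °C in 4 of 9 t-types, and no member was higher or lower at 34 °C in all 9. Kcnj3 had 47.4 CPM at 34 °C and 81.7 at 25 °C (log2 -0.77) and was higher at 34 °C in 2 of 9 t-types. Its mean at 25 °C included Sst Htr1a with 178 CPM, which had 24.4 CPM without 1 of its 6 cells. Over all Sst cells Kcnj3 had 44.6 CPM at 34 °C and 46.8 at 25 °C. The thinned share of Sst cells with a Kcnj3 read went the other way, with 67.4% at 34 °C and 40.9% at 25 °C. The TREK genes had 48.7 CPM at 34 °C and 54.8 at 25 °C for Kcnk2 and 14.5 and 21 CPM for Kcnk10. For Kcnk10 the mean rested on single t-types, such as Sst C1ql3_2 with 0 CPM at 34 °C and 96.7 at 25 °C, and Sst Pvalb Calb2 with 56 CPM at 34 °C and 4.86 at 25 °C. Of the 7 microglial markers with at least 10 CPM, 6 were past 2-fold lower at 34 °C, and so were 3 of 3 oligodendrocyte markers. Their part in these differences was not tested.

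In the IT type L5 IT_1, with 29 cells at 34 °C and 61 at 25 °C, 2 of 10 members were past 2-fold, 1 higher and 1 lower, both among the 9 with at least 10 CPM, against 15.4% of 11118 genes, 7.07% higher and 8.28% lower. Kcnk10 had 20.6 CPM at 34 °C and 8.96 at 25 °C (log2 1.12), and Kcnj4 had 4.37 and 13.4 CPM (log2 -1.42). Astrocyte and oligodendrocyte markers also differed between these 2 sets of cells, with 5 of 7 of each list past 2-fold higher in those recorded at 34 °C. Their part in these differences was not tested.

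The other genes of both channel families were mostly low. Of 10 other Kcnj genes, those of at least 10 CPM in one of the 8 larger families were Kcnj12 (17.6 CPM in Pvalb), Kcnj5, which encodes GIRK4 (16.3 in ET, 7.63 in IT), Kcnj2 (13.7 in IT) and Kcnj10 (15 in ET, 12.7 in L6b), a gene known from astrocytes and oligodendrocytes. Of 9 other Kcnk genes they were Kcnk4 (40.8 CPM in CT, 28 in IT), the third TREK-type channel known as TRAAK, Kcnk12 (18.3 in ET) and Kcnk13 (22.6 in Lamp5). In ET over IT, 1 of the 3 other Kcnj genes of at least 10 CPM was past 2-fold higher and 1 lower, and of the 2 other Kcnk genes 1 was lower, against 20% of all genes in either direction. In Pvalb over Sst 1 of 2 other Kcnj genes was past 2-fold higher, and the 1 other Kcnk gene of that level was not, against 13.1% of all genes in either direction.

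Of the genes that act on GIRK channels, the GABA-B receptor genes Gabbr1 and Gabbr2 and the 3 Kctd subunits were counted first. None of the 5 was past 2-fold in interneurons over excitatory neurons or in Pvalb over Sst. In Lamp5 over Vip 2 were higher and 2 lower. In ET over IT, Kctd8 was higher, with 107 CPM in ET and 13.9 in IT (log2 2.86), and Kctd16 lower, with 122 and 428 CPM (log2 -1.80). In CT over IT 1 was lower, Kctd12 with 9.73 CPM in CT and 29.5 in IT. Of all genes, 17.4%, 13.1%, 19.4%, 20% and 20.8% were past 2-fold in either direction in these comparisons, in the order named. Other Gi/o-coupled receptors were counted in the same way. Of 16, 13 had at least 10 CPM in ET over IT, 1 past 2-fold higher and 7 lower, with a median log2 of -1.05, against -0.05 over all genes, of which 9.45% were higher and 10.6% lower. In interneurons over excitatory neurons 3 of 13 were higher and 5 lower, against 8.32% and 9.05% of all genes. In Pvalb over Sst 1 of 8 was higher and 4 lower, against 6.72% and 6.4%. The receptor Npy1r, which binds neuropeptide Y, had 194 CPM in Vip and 0.415 CPM in Pvalb. Of 13 G-protein, RGS and sorting genes, 0 were past 2-fold higher and 2 lower in Pvalb over Sst, against 13.1% of all genes in either direction. The sodium leak channel, which opposes potassium leak at rest, had all 4 of its genes at 10 CPM or more. In ET over IT 2 of them were past 2-fold higher, against 9.45% of all genes. They were Unc80 with 481 CPM in ET and 222 in IT and Fam155a with 436 and 205 CPM.

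The genes whose log2(CPM + 1) followed a member most closely over the 53 t-types were found among 15788 genes with at least 10 CPM in 1 t-type and a read in at least 50 cells. The t-types share libraries, depth and small cell numbers, so that r is a description. For Kcnk9 they were Arpp21 (r = 0.75), Npy1r (0.67) and Gpr85 (0.66), and over the 34 t-types of at least 10 cells Npy1r and Arpp21 were again the nearest pair (0.84 and 0.83). For Kcnj9 they included Grm5 (0.74) and Dab2ip (0.60), and Grm5 was again nearest over the 34 types (0.79). For Kcnk3 the nearest was Cdr2l (0.72), with 0.60 over the 34 types. The nearest were Gm47339 (0.63) for Kcnj4, Slitrk1 (0.60) for Kcnj6, Srbd1 (0.57) for Kcnj11 and Gm10593 (0.56) for Kcnk10. For Kcnk1 and Kcnk2 the nearest genes were Nol6 and Gm49320 (0.53 each), with 0.26 and 0.40 over the 34 types. Among pairs of members, r was highest for Kcnj3 and Kcnj9 (0.52) and for Kcnj3 and Kcnj6 (0.48). It was lowest for Kcnk2 and Kcnk9 (-0.37) and for Kcnk3 and Kcnk9 (-0.25).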

How the data were processed

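Cells were recorded by whole-cell patch clamp and sequenced with Smart-seq2 in single-end reads of 75 bases. Per the labels and the study's methods, the authors used bcl2fastq 2.20, aligned to mm10 with STAR 2.5.4b and counted reads per gene with zUMIs and a Gencode annotation. The deposited tables hold raw counts of exonic reads per gene and cell, with no molecular identifiers and no strand, and for the cells at 34 °C a deposited table of intronic counts was used as well. The intronic table at 25 °C was not used. In the tables, 9 columns matched no sample and were left out, as were 85 rows of spike-in RNA.

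For each family or t-type of at least 5 cells at 25 °C, the reads of a gene in all its cells were added up and divided by the total of those cells to give CPM. Exact Poisson and binomial intervals (95%) were computed with scipy 1.17.1, numpy 2.4.6 and pandas 2.3.3 in Python 3.11.15, and figures with matplotlib 3.10.9. A count of 0 was given a floor of 3 counts of the total, which covers counting error only and not the spread between cells. For shares of cells, each cell was thinned to 200000 counts, and 71 cells at 25 °C below that depth were left out. Differences are log2((CPM + 1)/(CPM + 1)), called past 2-fold at 1 or more in size, with genes of at least 10 CPM on 1 side as background. The scripts were tested on simulated data. Exon lengths, coordinates and sequences are from GENCODE M21 on GRCm38, an earlier release than the one the study's methods give for counting. Low values were not filtered among the 10 genes.

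The genes, lists and comparisons were chosen with earlier results of these data known. Named besides the 10 genes are, by rule, genes of the lists with the largest differences and the genes nearest to each member over t-types. Since each group is 1 sample, no p-value was computed. Alternatives were the mean of single-cell CPM, recording year, a depth minimum of 500000 counts, thinning, leaving out the deepest cell, pseudocounts of 0.1 and 10 CPM and median-of-ratios scaling. Leaving out the cell with the most reads, layer 5 IT cells alone and days with cells of both families were added after seeing the data. Some sequences and similar genes are not reported here.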

Additional observations from a re-analysis of the deposited data

Results flagged for a closer look

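For each gene, the t-types looked at were the highest, the second and the lowest of each family. Single cells stood apart in 32 of 112 such groups of 4 to 10 cells. The limit used marks about 1 in 20 groups by chance where values spread evenly, which counts mostly at 0 do not, and the groups were picked for extreme levels, so 1 in 20 is no yardstick here. In 18 groups the cell was the only one with reads of the gene, which marks the group by construction. The cell was the highest in 26 groups and the lowest in 6.

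Among inward rectifiers, 1 cell of Sst Th_1 had 401 CPM of Kcnj6 and the next 0.655 CPM, and 1 cell of that t-type had 69 CPM of Kcnj11 and the next 5.24 CPM. A Lamp5 Pax6 cell had 145 CPM of Kcnj6, a Vip Serpinf1_1 cell 6.57 CPM and an L5 IT_3 cell 12.2 CPM, each with no read in the others of its t-type. For Kcnj4, a cell of L5 IT_2 had 180 CPM and the next 5.10 CPM, while an L5 IT_3 cell with 6.62 CPM and an L6b Ror1 cell with 0.419 CPM were alone in having reads, as was a Lamp5 Egln3_1 cell with 96.8 CPM. For Kcnj11, a Sst Myh8_3 cell was alone with 89.6 CPM, an L5 IT_3 cell had 74.7 CPM and the next 1.0 CPM, and an L5 IT_2 cell had 1.27 CPM and the next 0.190 CPM. In L6b Ror1, 1 cell had 425 CPM of Kcnj9 and the next 1.45 CPM, and 1 cell was low for Kcnj3 with 9.01 CPM, the next having 109.5 CPM. Kcnj9 was at 0 CPM in 1 cell each of Sst C1ql3_1, L5 IT_2 and L5 PT_4, where the next lowest cells had 71.1, 66.5 and 14 CPM, and in 1 cell of Sst C1ql3_2, where the next had 171 CPM.

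Among the 2-pore genes, a Sst C1ql3_2 cell had 506 CPM of Kcnk10 and an L6b Col6a1 cell 4.85 CPM, with no read in the others of either t-type. The same held for Kcnk10 in a Vip C1ql1 cell with 536 CPM, a Pvalb Gabrg1 cell with 317 CPM and a Lamp5 Egln3_1 cell with 0.414 CPM. Kcnk9 was at 267 CPM in 1 cell of Pvalb Gabrg1 and at 0 in the other 6, at 97.4 CPM in 1 cell of Sst C1ql3_2 and at 0 in its others, and at 137 CPM in 1 cell of Pvalb Calb1_1, where the next had 1.69 CPM. For Kcnk3, single cells of Lamp5 Egln3_1, Lamp5 Egln3_2 and Vip Htr1f had 192, 2.96 and 0.995 CPM and the others 0. A Lamp5 Pax6 cell had 11.6 CPM of Kcnk2 with 0 in the others, a Vip Mybpc1_1 cell had 863 CPM of Kcnk2 and the next 17.2 CPM, and a cell of L6b Ror1 had 0 CPM of Kcnk1 where the next lowest had 64.8 CPM.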

How the results depend on the processing

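In the numbers of members past 2-fold, most changes came with the pseudocount and the recording year. A pseudocount of 10 CPM, which shrinks differences of low genes by construction, left 1 member in interneurons over excitatory neurons, 3 in Pvalb over Sst, 1 in Lamp5 over Vip, and 0 in CT over IT and in both temperature comparisons. Of all genes, 10.3%, 7.29%, 10.8% and 10.5% were then past 2-fold in the first comparisons named, 5.67% at 34 °C in Sst and 5.39% in L5 IT_1. With cells of the last recording year at 25 °C alone there were 2 members in interneurons over excitatory neurons, beside 23.4% of all genes. In ET over IT there were then 9, where 5 ET cells remained and 53.2% of all genes were past 2-fold. With cells of the earlier years alone there were 8 in CT over IT, where 1 CT cell remained and 79.1% of all genes were past 2-fold. Without the deepest cells there was 1 in CT over IT, beside 21.1% of all genes. In Sst at 34 °C over 25 °C, thinning left 0 members, beside 14.4% of all genes. There, 25 °C cells of the earlier years gave 3 and those of the last year gave 0, beside 30.2% and 18.1% of all genes. In L5 IT_1, 25 °C cells of the earlier years gave 1 and those of the last year gave 4, beside 17.2% and 42.6%. Setting ET against layer 5 IT cells alone, an alternative chosen after seeing the data, gave 4, beside 21.9%. Days with cells of both families, also chosen after seeing the data, gave 6 in Pvalb over Sst, 4 in Lamp5 over Vip, 3 in ET over IT and 1 in CT over IT, beside 18.4%, 27.4%, 24.4% and 26.1%. Cells of the earlier years alone reversed Kcnk3 in interneurons over excitatory neurons (log2 -1.40), Kcnj11 in Lamp5 over Vip (-0.15) and Kcnk2 in CT over IT (-0.33). The cause was not tested beyond the cell numbers given. Of 750 values of single members under an alternative, 662 stayed on the same side of 2-fold, 85 crossed it and 3, past 2-fold before, changed sign. Leaving out the cell with the most reads was also chosen after seeing the data. Intronic counts at 25 °C and exonic with intronic counts per kilobase were not run. Pairing by animal was not possible because the labels name no animal, so families were paired only within shared recording days. No result comes from a test. Depth and cell number limit the low genes. The floor of 3 counts is 0.145 CPM in the 13 Sncg cells and 0.330 CPM in the 5 NP cells. It covers counting error only, and with so few cells a gene without a read may be at a higher level.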
